A study of Mus musculus with 32 samples.

Results

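Loss of SRSF1 and loss of SRSF3 were compared directly in whole P19 cells, with 4 of the 32 libraries of the series. P19 is a mouse embryonal carcinoma line, a tumor-derived model of pluripotent cells. The cells were transfected with esiRNA, a pool of short interfering RNAs made by enzymatic digestion of a longer RNA, against SRSF1 (replicates A and B) or against SRSF3 (replicates A and B). After 36 h, poly(A)+ RNA of whole-cell lysates was sequenced. The 4 libraries were taken by their labels and not by any measured value. A GFP esiRNA served as the mock transfection (replicates A and B), and its values are given beside those of the knockdowns but did not enter the contrast. No genetic change or further treatment is labelled for any of these groups. The sources used here name no further esiRNA for either gene, so the effect of a pool and the effect of losing the protein cannot be told apart. By the study's methods the libraries of a group were biological replicates, and the design text counts technical ones as well.

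SR proteins bind pre-mRNA through RNA recognition motifs, act through domains rich in arginine and serine, and take part in exon recognition, 3′ end formation and mRNA export. SRSF1 is the founding member of the family and is known for binding purine-rich exonic enhancers. SRSF3 is the smallest member and is known for binding pyrimidine-rich RNA and for its part in the choice of 3′ ends. Both proteins also act on transcripts of their own family.

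The targeted genes were examined first. *Srsf1* (ENSMUSG00000018379) had 5291 and 6015 scaled reads in SRSF1 knockdown replicates A and B, and 13342 and 10340 in SRSF3 knockdown replicates A and B. A scaled read is a read counted to the gene and divided by a library size factor by the authors. The control libraries had 10137 and 11450, so only the SRSF1 knockdown libraries were low. *Srsf3* (ENSMUSG00000071172) had 7145 and 4440 scaled reads after SRSF3 knockdown, 9491 and 8317 after SRSF1 knockdown and 8695 and 8161 in the control. Its lowest value was in SRSF3 knockdown replicate B, and in replicate A the loss of *Srsf3* RNA was smaller. On the log2 scale, SRSF3 minus SRSF1 knockdown was 1.05 ± 0.13 (SE) for *Srsf1* (adjusted p = 3.09e-05) and -0.67 ± 0.12 for *Srsf3* (adjusted p = 0.000506). These and all gene-level tests are limma fits with Benjamini-Hochberg adjusted p-values over 18540 genes. Without the replicate letter as a block, the adjusted p of *Srsf3* was 0.0766, and that of *Srsf1* was 0.00209.

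Of the 11 measured SR protein family genes, 2 were higher after SRSF3 than after SRSF1 knockdown (*Srsf1* and *Srsf2*), 2 were lower (*Srsf3* and *Srsf12*) and 7 did not pass an adjusted p of 0.05. Over all genes tested, 17.0% were higher and 16.3% lower. The family's median difference was -0.13 on the log2 scale, beside 0.00 over all genes. *Srsf2*, which encodes a splicing activator of the same family, had 7564 and 5996 scaled reads after SRSF1 knockdown, 11787 and 6903 after SRSF3 knockdown, and 7891 and 7179 in the control. The SRSF1 and SRSF3 knockdown values overlapped across letters, and the difference was 0.62 in the A pair and 0.20 in the B pair (log2 0.41 ± 0.14, adjusted p = 0.0373). *Srsf12* was a low gene, with 72.4 and 79.6 scaled reads after SRSF1 knockdown and 49.5 and 51.5 after SRSF3 knockdown (log2 -0.59 ± 0.19, adjusted p = 0.026). *Srsf7*, the closest relative of *Srsf3*, had 5323 and 4294 scaled reads after SRSF1 knockdown and 6639 and 4027 after SRSF3 knockdown (log2 0.10 ± 0.16, adjusted p = 0.666). For *Srsf7* the letters went opposite ways. The calls of *Srsf2* and *Srsf12* were lost without the block and without any one of several libraries. Without SRSF1 knockdown replicate A, for example, their adjusted p was 0.234 and 0.107, and without SRSF3 knockdown replicate A it was 0.381 and 0.0961. *Srsf4*, *Srsf5*, *Srsf6*, *Srsf9*, *Srsf10* and *Srsf11* differed by -0.22 to 0.21 and did not pass the test.

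Across the transcriptome, 3154 genes were higher and 3028 were lower after SRSF3 than after SRSF1 knockdown. Most differences were modest. The median absolute difference of the 6182 called genes was 0.56 on the log2 scale, and 2525 of them lay between -0.5 and 0.5. Large differences were more often upward, with 764 called genes above 1 and 353 below -1. Where a gene averaged 100 scaled reads or more, the difference in the A pair and the difference in the B pair had a Pearson r of 0.82 across 12598 genes. Each of the 4 libraries enters only 1 of these differences, but genes are not independent replicates. The control stood nearer to the SRSF1 knockdown than to the SRSF3 knockdown for 68.7% of the higher genes and 73.7% of the lower genes, beside 58% of the genes that were not called. Among 568 long intergenic noncoding RNA genes, 106 were higher (18.7%) and 41 lower (7.22%), beside 18.4% and 18.6% of 15125 protein-coding genes. More calls upward were also seen for 440 antisense genes (14.1% and 9.32%) and 344 processed transcripts (15.1% and 8.72%). For 1504 processed pseudogenes the shares were 5.52% and 4.12%. The knockdown libraries held 27856496 to 32428610 reads counted to genes. The counts of calls depended on single libraries. Without SRSF1 knockdown replicate A they were 1655 higher and 1519 lower, and without SRSF3 knockdown replicate A they were 1522 and 1423.

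**Figure D1:**
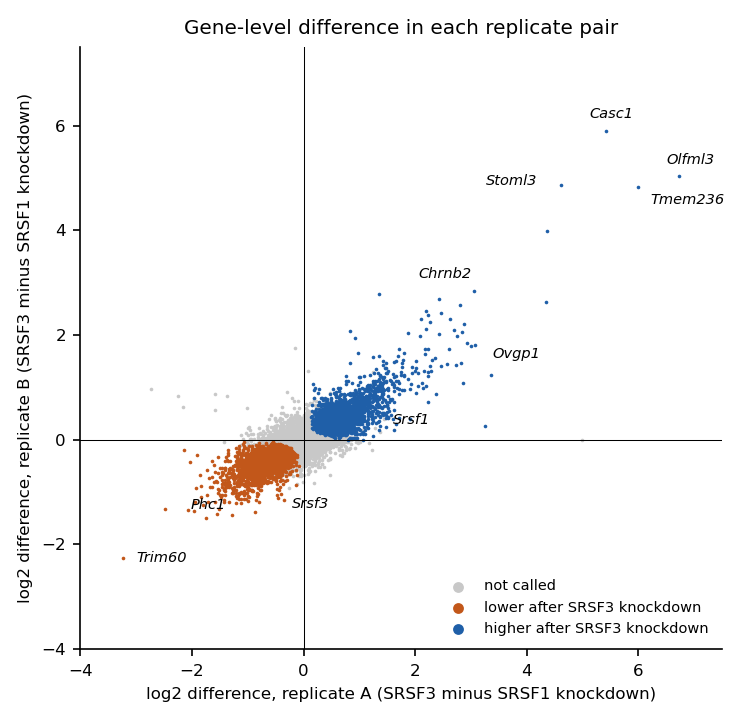
Each point is 1 of 12598 genes with a mean of at least 100 scaled reads, placed by the log2 difference SRSF3 minus SRSF1 knockdown in replicate A (x axis) and in replicate B (y axis). Blue and orange points passed an adjusted p of 0.05 and lie in the upper right and lower left. *Olfml3*, *Casc1*, *Tmem236* and *Stoml3* lie at the upper right in both pairs, which their choice by size and direction favors.

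Called genes were ranked if they averaged at least 100 scaled reads over the 4 knockdown libraries and had the same direction in both letters. Among them, the largest differences were genes nearly silent after SRSF1 knockdown and in the control that were well expressed after SRSF3 knockdown. Over all genes tested, differences ran from -3.93 to 6.27 on the log2 scale. *Olfml3*, which encodes a secreted olfactomedin-domain protein, had 5.49 and 11.8 scaled reads after SRSF1 knockdown, 8.96 and 7.57 in the control, and 702 and 418 after SRSF3 knockdown (log2 5.88 ± 0.48, adjusted p = 1.5e-06). *Casc1*, which encodes a protein tied to axonemal dynein, had 8.78 and 3.23 after SRSF1 knockdown, 15.7 and 6.63 in the control, and 424 and 252 after SRSF3 knockdown (log2 5.66 ± 0.35, adjusted p = 3.06e-07). Both genes stood apart in both letters, with no overlap of the groups, which the choice of genes by size and direction favors.

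*Tmem236*, a predicted membrane protein gene, rose from 5.49 and 5.38 to 416 and 180 scaled reads, with 15.7 and 3.79 in the control (log2 5.40 ± 0.49, adjusted p = 2.72e-06). *Stoml3*, a stomatin family gene known from sensory neurons, rose from 17.6 and 12.9 to 461 and 406, with 11.2 and 10.4 in the control (log2 4.74 ± 0.40, adjusted p = 1.79e-06). *Tcte3*, which encodes a dynein light chain of the sperm tail, rose from 11 and 9.68 to 250 and 168, with 11.2 and 9.47 in the control (log2 4.17 ± 0.46, adjusted p = 1.3e-05). In all 3 genes the SRSF1 knockdown libraries were near the control. The exon annotation of *Tcte3* is merged with other genes, and its merged bins held 32 and 22 reads after SRSF1 knockdown and 518 and 444 after SRSF3 knockdown.

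The reads of these genes were not all placed alike along the gene. In *Casc1* they were found in 27 and 24 of its 28 exon bins after SRSF3 knockdown, against 8 and 3 after SRSF1 knockdown. An exon bin is a stretch of exon that does not change between the annotated transcripts of a gene. In *Stoml3* all 8 bins held reads in both SRSF3 knockdown libraries. In *Tmem236*, 92.5% of the reads of the SRSF3 knockdown libraries were in the last bin of 3104 bases. In *Olfml3*, 77.4% were in a single bin of 2434 bases, in an exon annotation that merges *Olfml3* with other genes, whose reads cannot be told apart.

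Among the other genes with the largest rise, *Chrnb2*, which encodes a beta subunit of the nicotinic acetylcholine receptor, had 128 and 113 scaled reads after SRSF1 knockdown, 71.7 and 78.6 in the control, and 704 and 738 after SRSF3 knockdown (log2 2.56 ± 0.17, adjusted p = 4.57e-07). *Myh3*, the embryonic skeletal myosin heavy chain gene, had 66.9 and 45.2, then 103 and 56.8, then 502 and 213 in the same order (log2 2.54 ± 0.24, adjusted p = 3.6e-06). *Cdkl3*, a cyclin-dependent kinase-like gene, had 79.6 and 51.5 after SRSF1 knockdown and 503 and 260 after SRSF3 knockdown, a 5.53-fold difference. *Ccdc150*, which encodes a coiled-coil protein, moved in both knockdowns, with 37.3 and 65.6 after SRSF1 knockdown, 162 and 194 in the control, and 251 and 286 after SRSF3 knockdown (log2 2.40 ± 0.20, adjusted p = 1.79e-06). *Trpc5os*, *2610528A11Rik* and *Gm10501* also rose, by 3.49, 2.95 and 2.44 on the log2 scale.

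Some gene-level differences were not seen in the exon bins. *Mroh2a* had 91.1 and 73.1 scaled reads after SRSF1 knockdown and 667 and 309 after SRSF3 knockdown in the gene table. Its 56 exon bins held 3 and 3 reads after SRSF1 knockdown and none after SRSF3 knockdown, so its rise is uncertain. *Ovgp1* rose from 156 and 316 to 1350 and 1110 scaled reads, but its exon annotation is merged with another gene. *Zeb2os* and *Prss23os*, which were lower in the gene table, had at most 3 exon-bin reads in any library. No source used here states whether the counting was by strand, so reads of an antisense gene and of its partner on the opposite strand cannot be told apart. This holds for *Trpc5os*, *Trp73os*, *Zeb2os*, *Prss23os*, *Gm10501* and *Gm16185*.

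Among genes ranked by the same rule, the largest decreases were smaller than the largest increases. *Trim60*, a gene of the tripartite motif family, had 204 and 330 scaled reads after SRSF1 knockdown, 57.6 and 103 in the control, and 21.2 and 68.4 after SRSF3 knockdown (log2 -2.74 ± 0.26, adjusted p = 3.33e-06). The exon annotation of *Trim60* is merged with other genes. Its merged bins held 1670 and 3234 reads after SRSF1 knockdown and 1695 and 3066 after SRSF3 knockdown, so its fall was not seen there and is uncertain. *Trp73os* had 555 and 274 after SRSF1 knockdown, 125 and 147 in the control, and 100 and 109 after SRSF3 knockdown (log2 -1.91 ± 0.24, adjusted p = 4.17e-05). In the gene table the SRSF1 knockdown libraries were above the control for both genes, and the SRSF3 knockdown libraries were at or below it in the same letter. *Ccnb1ip1*, known for its part in meiotic crossing over, had the same pattern, with 1462 and 1100 after SRSF1 knockdown, 598 and 693 in the control, and 515 and 443 after SRSF3 knockdown (log2 -1.42 ± 0.14, adjusted p = 5.86e-06).

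For *Mpped2* the control stood near the SRSF1 knockdown. *Mpped2*, a metallophosphoesterase gene, had 307 and 341 scaled reads after SRSF1 knockdown, 294 and 370 in the control, and 94.3 and 149 after SRSF3 knockdown (log2 -1.45 ± 0.14, adjusted p = 4.74e-06). *Cfap43*, a gene of cilia and flagella, fell by 1.62 on the log2 scale, in an exon annotation merged with other genes, and *Unc80*, which encodes a subunit of a sodium leak channel complex, fell by 1.58. *Slc1a2*, a glutamate transporter gene, had 699 and 470 after SRSF1 knockdown, 332 and 299 in the control, and 235 and 207 after SRSF3 knockdown (log2 -1.39 ± 0.15). *AF529169*, *Gm9581* and *Tmprss11b*, which encodes a serine protease, fell by 1.71, 1.52 and 1.46. *Gm16185* fell by 1.43 in the gene table, but with its summed exon-bin reads the adjusted p of edgeR was 0.23.

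**Figure D2:**
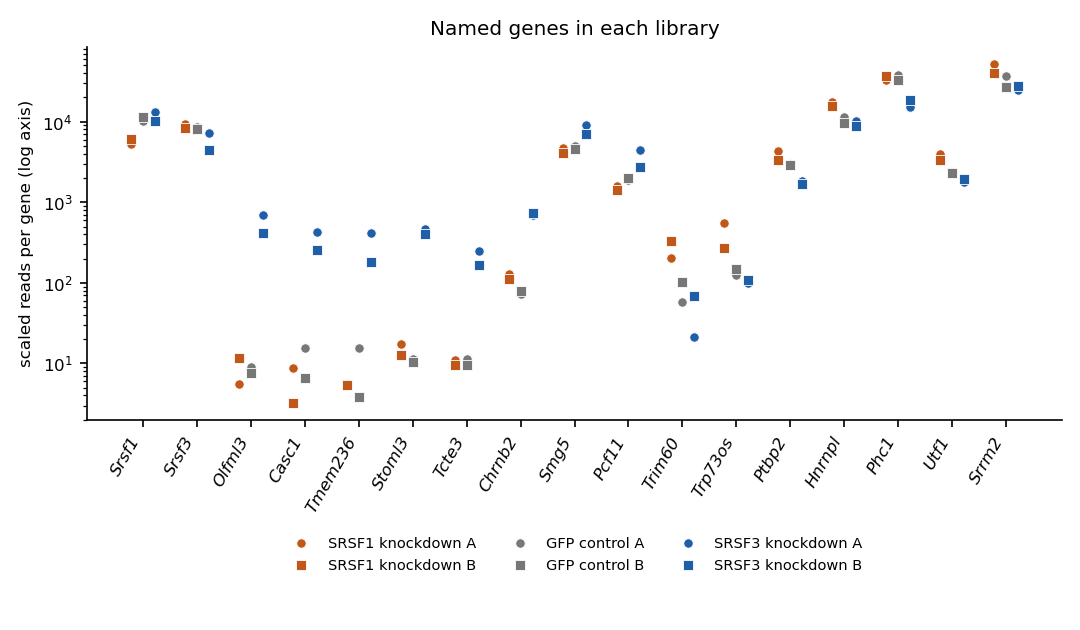
Scaled reads per gene (y axis, log scale) of named genes in the SRSF1 knockdown (orange), GFP control (grey) and SRSF3 knockdown (blue) libraries, with circles for replicate A and squares for replicate B. *Olfml3*, *Casc1*, *Tmem236*, *Stoml3* and *Tcte3* were high only in the SRSF3 knockdown libraries, and *Trim60* and *Trp73os* were highest after SRSF1 knockdown.

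Other regulators of splicing were examined next. For each list below, the share over all genes tested was 17.0% higher and 16.3% lower. Heterogeneous nuclear ribonucleoproteins (hnRNPs) bind pre-mRNA and often act against SR proteins at splice sites. Of 25 measured hnRNP genes, 5 were higher and 11 were lower after SRSF3 than after SRSF1 knockdown, with a median log2 difference of -0.12. *Ptbp2*, the neural paralog of the polypyrimidine tract binding protein, had 4350 and 3377 scaled reads after SRSF1 knockdown, 3003 and 2906 in the control, and 1823 and 1688 after SRSF3 knockdown (log2 -1.14 ± 0.09, adjusted p = 1.5e-06). *Hnrnpl* had 17503 and 15658, then 11542 and 9611, then 10284 and 8721 in the same order (log2 -0.82 ± 0.08, adjusted p = 4.17e-06). The control thus lay between the knockdowns for *Ptbp2*, and nearer to the SRSF3 knockdown for *Hnrnpl*. *Hnrnpa1* and *Hnrnpd* fell by 0.78 and 0.66.

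All 4 called genes of the 8 measured SR protein kinases, which phosphorylate the arginine and serine domains, were lower after SRSF3 knockdown, and none was higher. *Clk3* had 1943 and 1907 scaled reads after SRSF1 knockdown, 1983 and 1918 in the control, and 1434 and 1161 after SRSF3 knockdown (log2 -0.59 ± 0.11, adjusted p = 0.000834). *Srpk2*, *Clk2* and *Dyrk1a* fell by 0.47, 0.29 and 0.24. The calls of *Clk2* and *Dyrk1a* were not stable. Their adjusted p was 0.0563 and 0.123 in a fit of the 4 knockdown libraries alone, 0.178 and 0.167 without SRSF1 knockdown replicate A, and 0.158 and 0.132 without SRSF3 knockdown replicate A. Without the block the adjusted p was 0.0651 for *Srpk2*, 0.35 for *Clk2* and 0.193 for *Dyrk1a*, so *Clk3* alone kept its call there. Of 20 SR-related coactivators, 4 were higher and 3 lower. *Srrm2*, a large scaffold protein of the spliceosome and of nuclear speckles, had 52045 and 40128 scaled reads after SRSF1 knockdown, 36653 and 27106 in the control, and 24973 and 27884 after SRSF3 knockdown (log2 -0.80 ± 0.12, adjusted p = 0.000144). *Scaf4*, which binds the tail of RNA polymerase II, rose by 0.60 and *Ddx39b*, an RNA helicase of splicing and export, by 0.47, while *Srek1* fell by 0.48.

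Factors that act after splicing were examined in 4 lists. Of 12 nonsense-mediated decay factors, which remove transcripts with premature stop codons, 5 were higher and 2 lower, with a median of 0.17. *Smg5* had 4700 and 4112 scaled reads after SRSF1 knockdown, 5031 and 4646 in the control, and 9141 and 7056 after SRSF3 knockdown (log2 0.86 ± 0.09, adjusted p = 9.56e-06). *Upf2* and *Smg6* rose by 0.53 and 0.52, and *Dhx34* fell by 0.46 (adjusted p = 0.335 without SRSF3 knockdown replicate A). Of 9 measured snoRNA host genes, whose spliced transcripts are mostly substrates of this decay, 1 was higher and 3 lower. *Snhg3* had 971 and 627, then 542 and 439 in the control, then 2545 and 1223 after SRSF3 knockdown (log2 1.16 ± 0.16, adjusted p = 9.19e-05). *Snhg12*, *Snhg4* and *Snhg11* fell by 0.83, 0.66 and 0.58.

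Of 21 cleavage and polyadenylation factors, 5 were higher and 2 lower, with a median of 0.02. *Pcf11*, a factor of cleavage and of transcription termination, had 1605 and 1418 scaled reads after SRSF1 knockdown, 1907 and 1978 in the control, and 4432 and 2734 after SRSF3 knockdown (log2 1.19 ± 0.13, adjusted p = 1.54e-05). *Cstf3*, a subunit of the cleavage stimulation factor, and *Clp1* rose by 0.88 and 0.86. *Cpsf6*, a subunit of cleavage factor I, had 6844 and 5764 scaled reads after SRSF1 knockdown, 5831 and 4592 in the control, and 3800 and 3683 after SRSF3 knockdown (log2 -0.76 ± 0.10, adjusted p = 3.98e-05). Of 21 NXF1 and TREX export factors, 7 were higher and 2 lower, with a median of 0.12. *Alyref*, an export adaptor, had 3778 and 3272, then 3637 and 4081 in the control, then 7107 and 4739 after SRSF3 knockdown (log2 0.71 ± 0.12, adjusted p = 0.000373). *Ddx39* rose by 0.60, and *Thoc2*, a subunit of the THO complex, fell by 0.48.

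Stress and metabolic genes were called in both directions, as were all genes tested (17.0% higher and 16.3% lower). Of 27 p53 targets, 5 were higher and 6 lower, with a median of -0.10. *Cdkn1a*, a cell cycle inhibitor, had 65.8 and 143 scaled reads after SRSF1 knockdown, 96.3 and 199 in the control, and 253 and 189 after SRSF3 knockdown (log2 1.15 ± 0.26, adjusted p = 0.0032). The difference was 1.91 in the A pair and 0.40 in the B pair, where SRSF3 knockdown was not above the control. Without SRSF3 knockdown replicate A the adjusted p was 0.105 for *Cdkn1a*, 0.0646 for *Plk2*, 0.0824 for *Ddit3* and 0.149 for *Insig1*. *Plk2* and *Plk3*, polo-like kinase genes, rose by 1.06 and 0.63, and *Perp*, a membrane protein of cell death and desmosomes, fell by 0.72. Of 30 genes of the integrated stress response, 2 were higher and 7 lower, with a median of -0.15. *Ddit3*, a transcription factor of that response, had 1347 and 1582, then 1947 and 2055 in the control, then 3484 and 2731 after SRSF3 knockdown (log2 1.07 ± 0.23, adjusted p = 0.00232), and *Ppp1r15a*, which restores translation, rose by 0.97. *Slc7a1*, an amino acid transporter gene, and *Cebpg* fell by 0.76 and 0.52. Without SRSF3 knockdown replicate A these values were -0.27 (adjusted p = 0.255) and -0.54 (adjusted p = 0.0913), and without SRSF1 knockdown replicate A the adjusted p was 0.0594 and 0.259. Of 31 genes of cholesterol synthesis and its SREBP regulators, 8 were higher and 3 lower, with a median of 0.02. *Insig1* rose by 0.73, with 1.14 in the A pair and 0.33 in the B pair, *Sc5d* and *Lss* rose by 0.67 each, and *Insig2* fell by 0.48. The adjusted p of *Sc5d* was 0.0955 without SRSF3 knockdown replicate A.

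The pluripotency genes and markers of other cell types were read together, since fewer cells of a type and less RNA per cell cannot be told apart in bulk RNA. Of 27 pluripotency genes, 2 were higher and 6 lower after SRSF3 knockdown, with a median of -0.11. All 28 listed genes with values, tested or not, were summed. Their summed level was 138730 and 132680 scaled reads after SRSF1 knockdown, 133253 and 124144 in the control, and 96936 and 94092 after SRSF3 knockdown. Such a sum is weighted to the most abundant genes, among them *Phc1*, *Pou5f1* and *Lin28a*, and does not describe the list gene by gene. Of the 27 genes, 19 were not called, 7 differed upward in both letters and 11 downward in both. *Phc1*, a polycomb gene abundant in these cells, had 32776 and 37384, then 37844 and 33040 in the control, then 15316 and 18720 after SRSF3 knockdown (log2 -1.06 ± 0.10, adjusted p = 4.66e-06). *Utf1*, a chromatin factor of undifferentiated cells, had 3990 and 3356, then 2376 and 2317 in the control, then 1771 and 1929 (2-fold lower, adjusted p = 0.000116). *Otx2* fell by 0.57 and *Klf4*, a low gene here, rose by 0.61 (0.39 with an adjusted p of 0.276 without SRSF3 knockdown replicate A). *Pou5f1*, the defining factor of the state, stayed high in every library, with 30788 and 28434 after SRSF1 knockdown, 31337 and 30153 in the control, and 24173 and 23944 after SRSF3 knockdown (log2 -0.31 ± 0.10, adjusted p = 0.0255). *Nanog* did not pass the test (log2 -0.12 ± 0.20, adjusted p = 0.68).

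Of 15 genes of fibroblasts, smooth muscle and epithelia, 8 were lower after SRSF3 knockdown and none was higher, with a median of -0.42. Their summed level was 29867 and 45649 scaled reads after SRSF1 knockdown, 29660 and 45546 in the control, and 24084 and 38989 after SRSF3 knockdown, so the letters differed by more than the knockdowns. *Krt19*, a keratin of simple epithelia, had 1004 and 3037 after SRSF1 knockdown and 433 and 2162 after SRSF3 knockdown (log2 -0.86 ± 0.17, adjusted p = 0.00115), a difference of -1.23 in the A pair and -0.49 in the B pair. *Cnn1*, *Tagln* and *Col1a2* fell by 0.84, 0.57 and 0.56. Without SRSF1 knockdown replicate B the adjusted p was 0.0937 for *Tagln* and 0.0656 for *Col1a2*. Of 19 neural genes, 2 were lower and none higher (*Map2* and *Gap43*, which fell by 0.89 and 0.83), and of 19 mesoderm and endoderm genes, 3 were lower and none higher (*Dab2*, *Mixl1* and *Lama1*, which fell by 0.79, 0.54 and 0.52). Without SRSF3 knockdown replicate A, *Mixl1* differed by -0.28 (adjusted p = 0.446) and *Lama1* by -0.44 (adjusted p = 0.262), and without SRSF1 knockdown replicate B the adjusted p was 0.122 and 0.377. With edgeR and DESeq2 on recovered reads the adjusted p of *Mixl1* was 0.105 and 0.116. No member of these lists was at 0 in all 6 libraries. Summed levels were 11070 and 11146, then 10160 and 10299, for the neural genes after SRSF1 and SRSF3 knockdown, and 4432 and 7856, then 4235 and 6605, for the mesoderm and endoderm genes. These sums hold all 22 and 23 listed genes with values, tested or not. The part of other cell types in the differences above was not tested.

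Cell cycle genes were also called in both directions, beside 17.0% higher and 16.3% lower over all genes. Of 25 mitosis genes, 6 were higher and 8 lower. *Cdc25c*, a phosphatase that activates mitotic kinase, had 475 and 588 scaled reads after SRSF1 knockdown, 763 and 897 in the control, and 1037 and 1015 after SRSF3 knockdown (log2 0.94 ± 0.11, adjusted p = 2.69e-05). *Bub1*, a kinase of the spindle checkpoint, had 7585 and 7655, then 6025 and 6068 in the control, then 4655 and 4547 (log2 -0.74 ± 0.08, adjusted p = 1.24e-05). The control lay between the knockdowns for both genes, which moved opposite ways. *Zwilch* and *Cdc25b* fell by 0.62 and 0.52. Of 29 DNA replication genes, 5 were higher and 3 lower. *Pcna*, *Tyms* and *Orc1* rose by 0.36, 0.36 and 0.35, and *Cdt1* fell by 0.41. All 4 lost their call without SRSF3 knockdown replicate A, with 0.18 for *Pcna* (adjusted p = 0.353), 0.33 for *Tyms* (adjusted p = 0.0666), 0.11 for *Orc1* (adjusted p = 0.531) and -0.26 for *Cdt1* (adjusted p = 0.105). Of 27 genes named in an earlier account of these data, 14 were higher and 7 lower, with a median of 1.18. That list was chosen on these libraries and is not independent evidence of direction. Beside *Chrnb2*, its members *Tmub1*, *Actn2* and *Tor1aip2* rose by 2.16, 2.15 and 2.08.

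**Figure D3:**
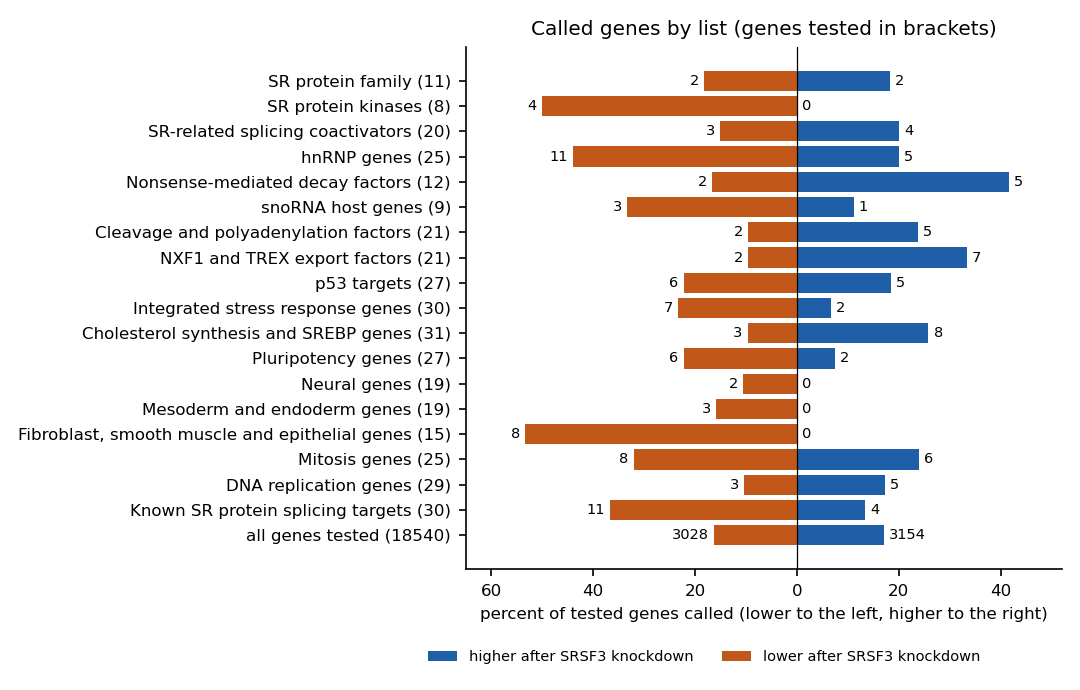
For each gene list, bars give the percent of its tested genes that were called higher (blue, right) or lower (orange, left) after SRSF3 than after SRSF1 knockdown, with counts at the bar ends and the number tested in brackets. The bottom row gives all 18540 genes, 17.0% higher and 16.3% lower. Calls in the lower direction only are seen for the SR protein kinases, the neural genes, and the mesoderm and endoderm genes. The same holds for the fibroblast, smooth muscle and epithelial genes.

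The same contrast was read in the cytoplasmic libraries of the 2 knockdowns, which the fit above did not use and which were scaled separately. By the study's methods, total and cytoplasmic RNA came from fractionated cells, and the letters of both fractions are the same. The fractions may thus share cultures, so agreement between them is not independent evidence. Of 5790 called genes that were also measured there, 4613 had the whole-cell direction in both cytoplasmic pairs, which is 79.7%, beside 49.5% of the genes that were not called. *Olfml3* differed by 6.27 and 7.16 on the log2 scale in cytoplasmic pairs A and B, *Chrnb2* by 2.67 and 2.93, and *Ptbp2* by -0.61 and -0.10. For 473 called genes both cytoplasmic pairs went the opposite way. No test was run on the cytoplasmic values.

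Splicing and 3′ ends were examined through exon bins. The usage of a bin is its level relative to the other bins of its gene, and its usage share is its reads as a percent of all bin reads of the gene. Of 179440 bins tested in 12947 genes, 1142 were used more (0.636%) and 1863 were used less (1.04%) after SRSF3 than after SRSF1 knockdown at an adjusted p of 0.1 (limma diffSplice). The called bins fell in 1803 genes, and 420 of them were in exon annotations that merge several genes. Of 1611 genes with a called bin that were also tested as genes, 42.6% were called as genes, beside 39.6% of the 10761 genes without a called bin. The counts depended on each library except SRSF3 knockdown replicate B. They were 169 used more and 251 used less without SRSF1 knockdown replicate A, 397 and 654 without SRSF1 knockdown replicate B, and 426 and 714 without SRSF3 knockdown replicate A.

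Called bins differed by their place in the gene. In the last block, the run of adjoining bins at the 3′ end of a gene, 625 of 23210 bins were used less after SRSF3 knockdown (2.69%) and 299 were used more (1.29%). Where a last block had several tested bins, the most distal bin was used less in 300 of 4920 blocks (6.10%) and more in 98 (1.99%). With edgeR's diffSpliceDGE these counts were 186 and 73. The most proximal bin of the same blocks was used less in 24 (0.488%) and more in 33 (0.671%). Tested distal and proximal bins had median depths of 110 and 120 reads. The distal bins used less had a median length of 1828 bases, and for 75% of them the usage share of the control was nearer to that of the SRSF1 knockdown.

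Long internal bins, which lie between the first and the last block of a gene, formed a further group. Of 6178 internal bins of 500 bases or more, 462 were used less after SRSF3 than after SRSF1 knockdown (7.48%) and 164 were used more (2.65%), against 0.514% and 0.436% of the 138559 shorter internal bins. Median depths were 50.2 and 58 reads. For the long bins used less, the control was nearer to the SRSF1 knockdown in 36.4%, and for the long bins used more in 81.7%, beside 51.6% of the long bins that were not called. Bins used less were more numerous than bins used more in the distal and in the long internal class under all 11 alternative settings, with 26 against 11 distal bins and 80 against 24 long internal bins without SRSF1 knockdown replicate A.

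**Figure D4:**
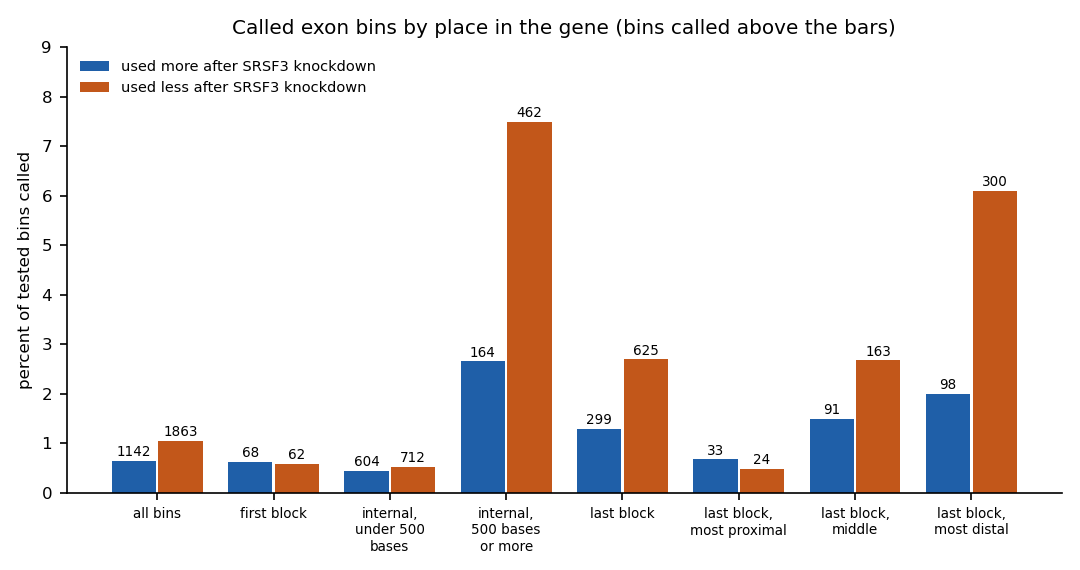
Percent of tested exon bins (y axis) that were used more (blue) or less (orange) after SRSF3 than after SRSF1 knockdown, by place in the gene, with the number of bins above each bar. The last 3 classes are subsets of the last block, in which the most distal bins reached 6.10% used less and the most proximal bins 0.488%.

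Among bins used more after SRSF3 knockdown, several lay in last blocks and had much smaller usage shares in the other libraries. Bin E020 of *Gorasp2*, a gene for a Golgi stacking protein, is a last block at chr2:70711812-70712636 (mm10, plus strand). It held 10 and 3 reads after SRSF1 knockdown, 4 and 1 in the control, and 226 and 241 after SRSF3 knockdown, which were usage shares of 6.15% and 4.68% in the latter (log2 usage difference 4.93 ± 0.40, adjusted p = 2.74e-12). At the gene level *Gorasp2* did not pass the test (log2 -0.12, adjusted p = 0.299). Bin E005 of *Zfp865*, a zinc finger gene, also a last block, held 5.07% and 5.76% of the reads of the gene after SRSF1 knockdown, 8.7% and 11.1% in the control, and 46.1% and 37.6% after SRSF3 knockdown (log2 3.57 ± 0.33, adjusted p = 2.46e-07). Bin E002 of *Gt(ROSA)26Sor*, a broadly expressed noncoding locus, went from 4.35% and 3.11% to 36.2% and 26.2%, with 4.07% and 5% in the control (log2 3.51 ± 0.53, adjusted p = 0.000223). In each of these the SRSF3 knockdown libraries were above all others, in bins picked for a large difference in the same direction in both letters. Without SRSF1 knockdown replicate A the adjusted p of *Gt(ROSA)26Sor* E002 was 0.481. The last-block bins *Tmem167* E011, *Cxadr* E010, *Fignl1* E003 and *Tbl3* E001 rose by 4.17, 3.64, 3.53 and 3.45 on the log2 scale. *Tmem167* E011 lost its call without SRSF1 knockdown replicate A (adjusted p = 1), SRSF1 knockdown replicate B (adjusted p = 0.117) or SRSF3 knockdown replicate A (adjusted p = 0.126), and *Fignl1* E003 without SRSF1 knockdown replicate A (adjusted p = 0.11).

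Internal bins were also used more. Bin E043 of *Hdac5*, a histone deacetylase gene, held 4 and 4 reads after SRSF1 knockdown, 6 and 6 in the control, and 77 and 98 after SRSF3 knockdown (log2 4.58 ± 0.52, adjusted p = 6.17e-11). Bin E003 of *Recql*, a DNA helicase gene, went from 0.336% and 0.45% to 6.63% and 4.54% of the reads of the gene, with 1.79% and 1.64% in the control (log2 3.81 ± 0.48, adjusted p = 3.6e-08). *Stam* E027, in a gene of endosomal sorting, had usage shares of 0.497% and 0.227% after SRSF1 knockdown and 4.47% and 4.61% after SRSF3 knockdown. Usage also rose for *Tmem234* E048 and *Arid3b* E012, by 3.81 and 3.45 on the log2 scale.

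Of the 12 named bins with the largest decrease after SRSF3 knockdown, 10 were internal and 2 were in last blocks. Bin E016 of *Tprkb*, a gene for a kinase-binding protein of tRNA modification, is an internal bin of 536 bases at chr6:85927985-85928520 (mm10). It held 11% and 9.2% of the reads of the gene after SRSF1 knockdown, 0.949% and 1.11% in the control, and 0.409% and 1.19% after SRSF3 knockdown (log2 -3.79 ± 0.32, adjusted p = 2.02e-10). *Rif1* E024, a bin of 999 bases in a gene of replication timing, held 263 and 313 reads after SRSF1 knockdown, 29 and 51 in the control, and 9 and 29 after SRSF3 knockdown (log2 -2.86 ± 0.34, adjusted p = 9.76e-10). *Pnisr* E011, in a gene for a speckle protein, held 47 and 29 reads after SRSF1 knockdown and 1 and 5 after SRSF3 knockdown (log2 -3.20 ± 0.64, adjusted p = 0.000729). In these 3 bins the control was near the SRSF3 knockdown. *Pnisr* E011 lost its call without SRSF1 knockdown replicate A (adjusted p = 0.135) or SRSF3 knockdown replicate A (adjusted p = 0.41).

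In others the control lay between. *Snap25* E006, 4557 bases inside the gene of a synaptic vesicle fusion protein, held 33.4% and 27.7% after SRSF1 knockdown, 17.4% and 10.1% in the control, and 5.08% and 6.24% after SRSF3 knockdown (log2 -2.85 ± 0.31, adjusted p = 1.29e-07). *Ttc13* E031 went from 6.02% and 5.03% to 0.696% and 0.975%, with 2.44% and 1.69% in the control (log2 -2.74 ± 0.28, adjusted p = 3.11e-11). *Epb4.1l4b* E001, a last-block bin of 3706 bases, went from 14% and 12.2% to 2.1% and 2.34%, with 5.11% and 8.26% in the control (log2 -2.64 ± 0.28, adjusted p = 4.42e-10). For *Rab12* E008, in a small GTPase gene, the control at 3.49% and 2.62% was nearer to the SRSF1 knockdown at 5.72% and 3.58% than to the SRSF3 knockdown at 0.461% and 0.717% (log2 -2.89 ± 0.44, adjusted p = 3.56e-05). The remaining bins with the largest decrease were *B130034C11Rik* E005, *Pofut1* E008, *Bcam* E004, *Las1l* E014 and *Bptf* E022, with log2 differences of -3.77, -3.20, -3.17, -3.03 and -2.73. *B130034C11Rik* E005, a last-block bin, differed by -0.24 with diffSpliceDGE (adjusted p = 1), and its adjusted p was 0.368 without SRSF1 knockdown replicate A.

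**Figure D5:**
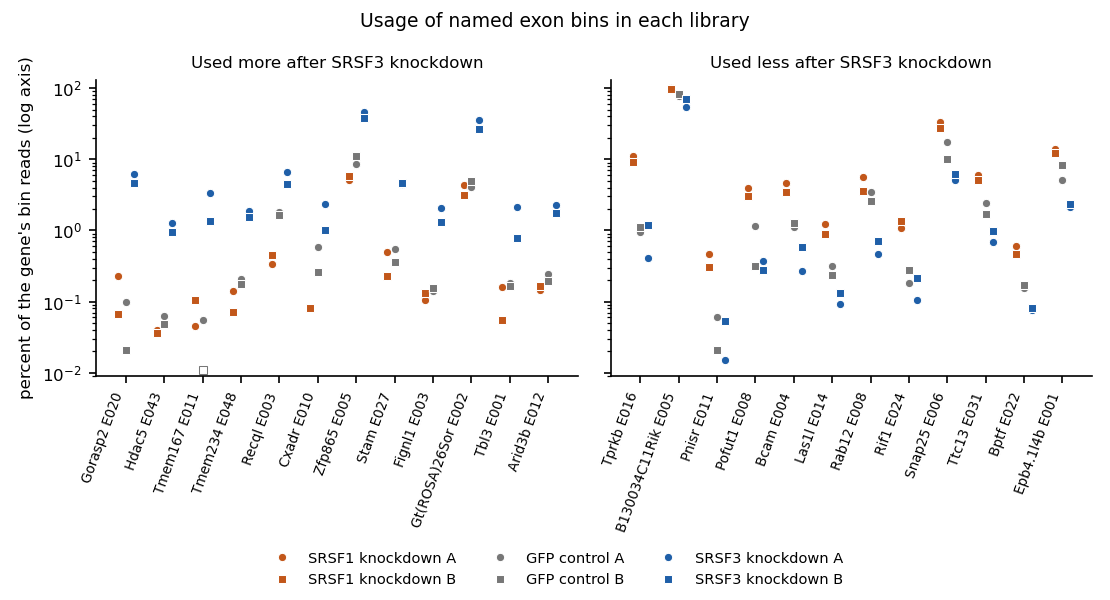
Usage share of the 12 bins with the largest increase (left) and the 12 with the largest decrease (right), as percent of the bin reads of the gene on a log axis, in the SRSF1 knockdown (orange), GFP control (grey) and SRSF3 knockdown (blue) libraries, with circles for replicate A and squares for replicate B. An open square marks a share of 0 in the control (*Tmem167* E011). In every bin both blue symbols lie on the same side of both orange ones, which the choice of bins by size and direction favors.

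No bin passed the test in *Srsf1*, *Srsf3* or *Srsf7*. In *Srsf3*, the bin nearest to the threshold was its most distal last-block bin E016, with usage shares of 5.94% and 5.37% after SRSF1 knockdown, 4.04% and 3.97% in the control, and 3.9% and 3.49% after SRSF3 knockdown (log2 -0.67 ± 0.23, adjusted p = 0.239). Over all bins tested, 1.04% were used less and 0.636% more. In the SR protein family as a whole, 13 of 179 tested bins were used less (7.26%) and 1 was used more (0.559%), in 4 genes. Internal bins of *Srsf11* and *Srsf6* were among them. *Srsf11* E035, of 1963 bases, held 7.38% and 8.13% after SRSF1 knockdown, 7.39% and 6.45% in the control, and 3.26% and 5.5% after SRSF3 knockdown (log2 -0.79 ± 0.16, adjusted p = 0.000633). *Srsf6* E005 held 2.93% and 3.48%, then 2.62% and 2.05% in the control, then 1.49% and 2.14% (log2 -0.82 ± 0.18, adjusted p = 0.00711). *Srsf5* E023 and *Srsf10* E024 fell by 0.70 and 0.60. These calls rested on single libraries. Without SRSF1 knockdown replicate A the adjusted p was 0.889 for *Srsf11* E035 and 0.777 for *Srsf6* E005, without SRSF1 knockdown replicate B it was 0.361 and 0.737, and without SRSF3 knockdown replicate A it was 0.157 and 0.709. Bins of 1 gene share their reads and are not independent.

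Of 30 known splicing targets of SR proteins, 4 were higher and 11 lower at the gene level after SRSF3 knockdown, with a median of -0.16. The knocked-down genes themselves are in these counts, *Srsf1* among the higher and *Srsf3* among the lower. *Mknk2*, a kinase of the translation factor eIF4E, rose by 1.09, with 1.62 in the A pair and 0.56 in the B pair, and *Tpm1*, a tropomyosin gene, fell by 0.80. Of 480 tested bins in 27 of these genes, 8 were used more (1.67%) and 11 less (2.29%), in 10 genes. The shares over all bins tested were 0.636% and 1.04%. Bin E009 of *Pkm*, the pyruvate kinase gene with mutually exclusive exons, is a 167-base exon at chr9:59675029-59675195 (mm10). It held 321 and 332 reads after SRSF1 knockdown, 450 and 466 in the control, and 582 and 716 after SRSF3 knockdown. These were usage shares of 0.261% and 0.288%, then 0.444% and 0.369%, then 0.519% and 0.514% (log2 0.92 ± 0.14, adjusted p = 2.28e-05), so the control lay between the knockdowns and no library overlapped. Without SRSF1 knockdown replicate A the adjusted p of *Pkm* E009 was 0.196.

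The distal last-block bin E001 of *Rps6kb1*, the gene for ribosomal S6 kinase, held 21.1% and 21.3% after SRSF1 knockdown, 20% and 21.3% in the control, and 11% and 12.4% after SRSF3 knockdown (log2 -1.01 ± 0.17, adjusted p = 3.94e-05). Only the SRSF3 knockdown libraries were low there. The call of *Rps6kb1* E001 was lost without SRSF1 knockdown replicate A (adjusted p = 0.451) or B (adjusted p = 0.12). In its internal bin E015 only the SRSF1 knockdown libraries were high, with 2.18% and 1.29% against 0.69% and 0.607% in the control and 0.384% and 0.534% after SRSF3 knockdown (log2 -1.98 ± 0.31, adjusted p = 1.61e-05), and without SRSF1 knockdown replicate A its adjusted p was 0.261. The distal last-block bins *Tial1* E001 and *Bcl2l11* E021, in genes of an RNA binding protein and of a cell death inducer, fell by 0.94 and 0.83, and without SRSF1 knockdown replicate A their adjusted p was 0.488 and 0.507. *Tial1* E019 rose by 1.95, with 0.4% and 0.427% after SRSF1 knockdown, 1.28% and 1.12% in the control, and 1.63% and 1.58% after SRSF3 knockdown. The log2 usage differences of *Casp9* E008 (-2.16), *Hipk2* E021 (3.46), *Cdc42* E001 (-0.47), *Ptbp2* E014 (2.05) and *Tpm1* E014 (-0.59) passed the test but rested on single libraries. Without SRSF3 knockdown replicate A their adjusted p was 1, 0.644, 0.499, 0.611 and 0.561, and without SRSF1 knockdown replicate B it was 0.195, 0.802, 0.9, 0.185 and 0.937. With diffSpliceDGE the adjusted p was 1 for *Cdc42* E001, 0.1 for *Ptbp2* E014 and 0.112 for *Tpm1* E014.

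Exon sequences were read where an internal bin that formed its whole block matched 1 exon of the NCBIM37 annotation by transcript and length. Of 80631 such bins of 30 to 1000 bases, 70032 matched (86.9%), with 167 used more and 205 used less among them. Whether these exons were internal in their own transcripts was not checked. Exons used less had a mean GC content of 51.5% and a median length of 190 bases, those used more 49% and 138 bases, and those not called 50% and 124 bases. The motif CTTC, on the transcribed strand, occurred 0.805 times per 100 bases in exons used less, 0.49 times in exons used more and 0.589 times in exons that were not called. CATC occurred 0.666, 0.37 and 0.548 times in the same order. The purine motifs GGAGA (0.119, 0.207 and 0.255) and GAAGA (0.184, 0.339 and 0.382) were rarest in the exons used less. At least 1 CTTC was in 74.1% of the exons used less, 51.5% of those used more and 50.4% of those not called, which are shorter. GAAGA and GGAGA can overlap each other. A match is a description of the letters and not a binding site.

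The 30-base window with the most bases in these motifs is shown for 4 matched exons used more and 4 used less. They had the largest changes among called exons of genes with a symbol, a mean of at least 20 reads and the same direction in both letters. Exons of a single chromosome were left out before this choice. The exons were chosen after the values were seen, so that the letters can be read beside the values. Capitals mark the 4 motifs, and sequences run 5′ to 3′ on the transcribed strand of NCBIM37 (mm9). The first 4 exons were used more and the last 4 less after SRSF3 than after SRSF1 knockdown.
Brip1 E018, chr11:86008636-86008665, minus strand: gtgacctgatttcaatCATCagagccCATC
Gorasp2 E019, chr2:70549097-70549126, plus strand: ggttatactgctgtGAAGAgaaccatgaac
Pogz E007, chr3:94665484-94665513, plus strand: agtggtctttGAAGAAGAggacgagGAAGA
Fxr2 E025, chr11:69465822-69465851, plus strand: gatacagcctaccccactttgttgttgttg
Rab12 E008, chr17:66854389-66854418, minus strand: aatgttagtggcatgtctcCATCCTTCATC
Bptf E022, chr11:106923412-106923441, minus strand: caggaaaagtaattaccaaattgccaCTTC
Eya3 E017, chr4:132236693-132236722, plus strand: acctgaaagtggtttaattcagactcCATC
Tmem57 E015, chr4:134392872-134392901, minus strand: agcaaatccatgCTTCcaaaagatggCTTC

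Read beside these sequences, the exon of *Rab12* held 5 CATC and 1 CTTC matches in its 190 bases and no purine motif. The exon of *Pogz*, a gene for a zinc finger protein of chromosome segregation, held 3 GAAGA matches, 3 CTTC and 1 CATC. It had 11 and 5 reads after SRSF1 knockdown, 1 and 3 in the control, and 89 and 38 after SRSF3 knockdown (log2 3.01 ± 0.48, adjusted p = 8.29e-06). The exon of *Brip1*, a DNA helicase gene, had 4 and 2, then 10 and 4 in the control, then 53 and 35 reads (log2 3.29 ± 0.52, adjusted p = 2.28e-05). *Eya3* E017, in a gene for a transcriptional coactivator and phosphatase, had usage shares of 1.99% and 1.83% after SRSF1 knockdown, 0.748% and 0.757% in the control, and 0.262% and 0.43% after SRSF3 knockdown (log2 -2.47 ± 0.36, adjusted p = 1.46e-06). In *Tmem57* E015, which held 2 CTTC and 1 CATC, the shares were 2.92% and 2.25%, then 1.14% and 1.05%, then 0.512% and 0.768% (log2 -2.04 ± 0.25, adjusted p = 1.57e-07). The motif counts varied within each direction. *Fxr2* E025, in the gene of a relative of the fragile X protein, was used more and held none of the 4 motifs, with 8 and 3 reads after SRSF1 knockdown, 4 and 4 in the control, and 59 and 45 after SRSF3 knockdown (log2 3 ± 0.35, adjusted p = 8.59e-09). *Bptf* E022, in a gene of chromatin remodeling, was used less and held 1 CTTC, with 153 and 102, then 33 and 30, then 10 and 14 reads (log2 -2.73 ± 0.42, adjusted p = 2.39e-06).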

How the data were processed

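The members, gene lists and tests were chosen with earlier results of these data known. Per the labels, the submitters' processing notes list TopHat2 (2.0.9, 2.0.10) with Bowtie2 2.1.0 among aligners, Cufflinks 2.1.1, the base caller CASAVA 1.8.2 and the trimmer cutadapt, with mm9 and mm10 as builds. The exon bins are in mm10. Whether the counting was by strand is not stated in these sources. The authors deposited the gene table as a scaled signal, reads per gene divided by a size factor, and the exon bins as reads scaled in the same way. Low gene values were whole multiples of 1 read for 98.52% to 98.62% of values in the 4 knockdown libraries (tolerance 0.1, up to 20 reads), and all bin values were (tolerance 0.01), so the bin reads were recovered. Gene reads were 27856496 to 32428610 and bin reads 41250801 to 47689170 per knockdown library, and intervals from them cover counting error only. The deposited tables of the authors' own comparisons (fold changes and p-values) were not used, and 0 sample columns were left unmatched.

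Genes were tested with limma 3.58.1 (R 4.3.3) on log2(value + 1) after TMM scaling (edgeR 4.0.16), filterByExpr and a mean-variance trend, over all 16 whole-cell libraries with the replicate letter as block, as SRSF3 minus SRSF1 knockdown. A fold on this scale understates the change of low genes. The letters pair the libraries: A minus B differences of 28 pairs of groups had Spearman correlations of 0.238 to 0.814 over 12643 genes (0.538 for SRSF1 with SRSF3 knockdown). Exon bins averaging 5 reads or more, in genes with 2 or more such bins, were tested with limma diffSplice with weights from the mean-variance trend, over the SRSF1, SRSF3 and GFP libraries with the same block. Left out were 4 genes listed at 0 in some library against a median of 100 or more in the others, taken as failed estimates. Tables scaled separately (cytoplasm) were not tested. Named were the SR family, the 14 genes with the largest change each way (mean of at least 100, same direction in both letters), up to 4 called genes per list, the 12 bins with the largest change each way (mean of at least 20 reads) and up to 2 called bins per gene of the SR family and target lists. The fits were tested on simulated counts, with the same spread for every feature and changes only in features averaging 100 reads or more. At 2-fold, 100 of 100 changed genes (18194 genes) and 95 of 100 changed bins (177327 bins) were recovered, and at 4-fold all 100 of each. Called without a change were 6 genes, and 16 bins in genes with no changed bin. Bins were simulated without a difference between letters. Recovery at the spread of the real libraries, or of bins with fewer reads, was not measured. Exon sequences came from the NCBIM37 genome with GENCODE annotation, with no conversion of coordinates. Alternatives were edgeR and DESeq2 1.42.0 on recovered reads, other scaling, filters, pseudocounts (0.25 and 5), no block and leaving out each library. Some named genes and bins that met these rules are not reported here.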

Additional observations from a re-analysis of the deposited data

Results flagged for a closer look

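Genes lower after SRSF3 than after SRSF1 knockdown in whole cells were higher in both cytoplasmic pairs for *Zwilch* (mean cytoplasmic log2 difference 0.75), *Snhg11* (0.61), *Srsf12* (0.23), *Dyrk1a* (0.21), *Srpk2* (0.20) and *Cebpg* (0.10). They stand here because every pair had one sign in whole cells and the opposite sign in the cytoplasm, as 473 of 5790 called genes had. Some of these differences were small or rested on few reads. *Cebpg* differed by 0.02 in cytoplasmic pair A. Cytoplasmic scaled reads were 22.8 to 37.8 for *Srsf12* and 31.7 to 106 for *Snhg11*. Without the replicate block, the whole-cell calls of *Srsf12*, *Dyrk1a*, *Srpk2* and *Cebpg* were lost. For *Zwilch*, whose product acts at kinetochores, the differences were -0.61 and -0.62 in whole cells and 0.79 and 0.71 in the cytoplasm. The difference between the fractions was not tested.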

How the results depend on the processing

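Without the replicate block, 1542 genes were higher and 1265 lower, and 34 of the 95 named genes that were called lost their call, as did 8 of 44 named bins. *Srsf3* kept its difference of -0.67 but had an adjusted p of 0.0766. With edgeR on summed exon-bin reads of 16498 genes, an alternative chosen after seeing the data, 2002 genes were higher and 1697 lower. Leaving out 1 library gave 1522 to 3477 genes higher, 1423 to 3296 lower, 169 to 1300 bins used more and 251 to 1914 used less. Over the same settings *Srsf1* ranged from 0.87 to 1.21 and *Srsf3* from -0.86 to -0.49, all called. The lowest gene counts were without SRSF3 knockdown replicate A, and the lowest bin counts without SRSF1 knockdown replicate A. Without weights 2167 bins were used more. Without SRSF3 knockdown replicate A, *Srsf7*, which was not called, differed by -0.12 (adjusted p = 0.708), and without the other libraries by 0.09 to 0.32. This was the only sign change among 102 named genes and 44 named bins. Leaving out SRSF1 A, SRSF1 B, SRSF3 A or SRSF3 B ended the call of 15, 9, 19 or 4 named genes and of 23, 16, 14 or 4 named bins. The other settings left the 4 overall counts of genes and bins within 1.5 times. Counts by place in the gene moved more. Distal last-block bins used less went from 300 to 186 with diffSpliceDGE. Internal bins under 500 bases used more went from 604 to 383 with a minimum mean of 20 reads and to 1349 without weights, where those used less went from 712 to 1423. A left-out library leaves a lone sample in its group, assumed to vary like the others. The causes were not tested beyond the fewer libraries or genes.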
